A study of Mus musculus with 12 samples.

Results

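The 40 genes described here were interleukins and interleukin receptor chains of a 750-gene immune panel. These were left after named genes of the interleukin-1, interleukin-2, interleukin-10, interleukin-12 and interleukin-18 systems were set aside. The choice was made by probe name. Of 59 gene probes named Il followed by a digit, 19 were set aside by name, genes of those 5 systems and Il7r. Il1rap and other chains of the wider interleukin-1 receptor family stayed among the members. The rule used no measured value, but it was set with earlier results of these data known. Of the 40 members, 21 encoded secreted ligands and 19 encoded receptor chains or soluble receptors.

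Interleukins are secreted signals that immune and tissue cells exchange through receptor complexes, and most families share a receptor chain. Interleukin-4 and interleukin-13 act through Il4ra, interleukin-15 and interleukin-21 through the common gamma chain Il2rg, interleukin-6 and interleukin-11 through gp130 (Il6st), interleukin-3 and interleukin-5 through the common beta chain Csf2rb, the interleukin-17 group through Il17ra, and interleukin-33 and interleukin-36 through Il1rap. In tumors many of these receptors sit on infiltrating leukocytes, and several of the ligands are made by small numbers of T cells, mast cells or innate lymphoid cells.

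RNA was counted in 12 tumors, each from a separate C57BL/6 mouse per the labels, with the nCounter system, which counts bar-coded probes bound to RNA without amplification. The tumors grew in the right flank from injected cells of the mouse melanoma line B16F10, and the RNA came from formalin-fixed, paraffin-embedded sections. Repeat-dose mice (n = 3) had 2 intratumoral injections of collagen-binding interleukin-2 and interleukin-12, and their tumors were taken 8 days after the first and 2 days after the last. Late single-dose mice (n = 3) had 1 injection of the same cytokines 8 days before collection, early single-dose mice (n = 3) had 1 injection 2 days before collection, and saline mice (n = 3) had 1 injection of saline 2 days before collection. The first injection was given to tumors of the same age in all groups, so repeat-dose and late single-dose tumors were older at collection than the others, and against saline their age and their treatment cannot be told apart. Of the repeat-dose cohort, stated once as 4 mice and otherwise as 3, 3 were analysed here. All tumors came from 1 transplanted line, and in bulk tissue fewer cells of a type and less RNA per cell cannot be told apart.

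Values below are scaled counts, raw counts divided by the relative geometric mean of 20 housekeeping probes in that tumor, given for replicates A, B and C. Summed over the 750 gene probes, a tumor gave between 392596 raw counts (repeat-dose replicate C) and 1232726 (early single-dose replicate B). Background in each tumor was taken as 2 SD above the average of the 8 negative probes. The raw limits were alike, 18.9 to 29.2 in repeat-dose tumors, 23.7 to 25.1 in late single-dose, 20.3 to 21.4 in early single-dose and 16.6 to 27.0 in saline tumors. The housekeeping counts were not, so the same limits on the scaled axis were 37.1 to 54.9, 22.3 to 31.8, 16.3 to 25.1 and 10.5 to 15.4. Of the melanocyte genes listed, S100b and Mcam were on the panel, with a summed scaled count of 2494 to 2691 in repeat-dose, 2476 to 2772 in late single-dose, 2292 to 2678 in early single-dose and 2283 to 3139.9 in saline tumors. The defining pigment genes Pmel, Tyr, Mlana and Dct were not analysed here, so the label of the tumor could not be checked on them.

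With housekeeping scaling, most receptors rose in repeat-dose tumors and most ligands did not pass the test. In repeat-dose tumors 11 of 19 receptors and 3 of 17 tested ligands rose relative to saline. The calls were 8 receptors and 2 ligands in late single-dose tumors, and in early single-dose tumors 7 receptors and 1 ligand, and no member fell in the 3 comparisons with housekeeping scaling. The test was edgeR's quasi-likelihood test with Benjamini-Hochberg adjustment over 729 genes and a threshold of 0.05. The share of all 729 genes that rose was 59.4% in repeat-dose, 39.1% in late single-dose and 30.5% in early single-dose tumors, and the share that fell was 1.92%, 0.137% and 0.686%. As shares of their own class, 11 of 19 receptors lay near that background in repeat-dose tumors, and the ligands lay below it. Ligands had a median log2 fold change of 0.61 for repeat-dose tumors over saline, 0.18 for late and 0.21 for early single-dose tumors. Receptors had medians of 1.60, 1.10 and 0.84 in the same comparisons, and all 729 genes had medians of 1.19, 0.78 and 0.56. The 3 comparisons share the saline tumors. Tested jointly for unequal levels over all 4 groups, 13 of 36 members passed, 3 ligands and 10 receptors, against 48.8% of all genes. Il3, Il22, Il24 and Il27, all ligands, lay below background in every tumor and were not tested.

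**Figure D1:**
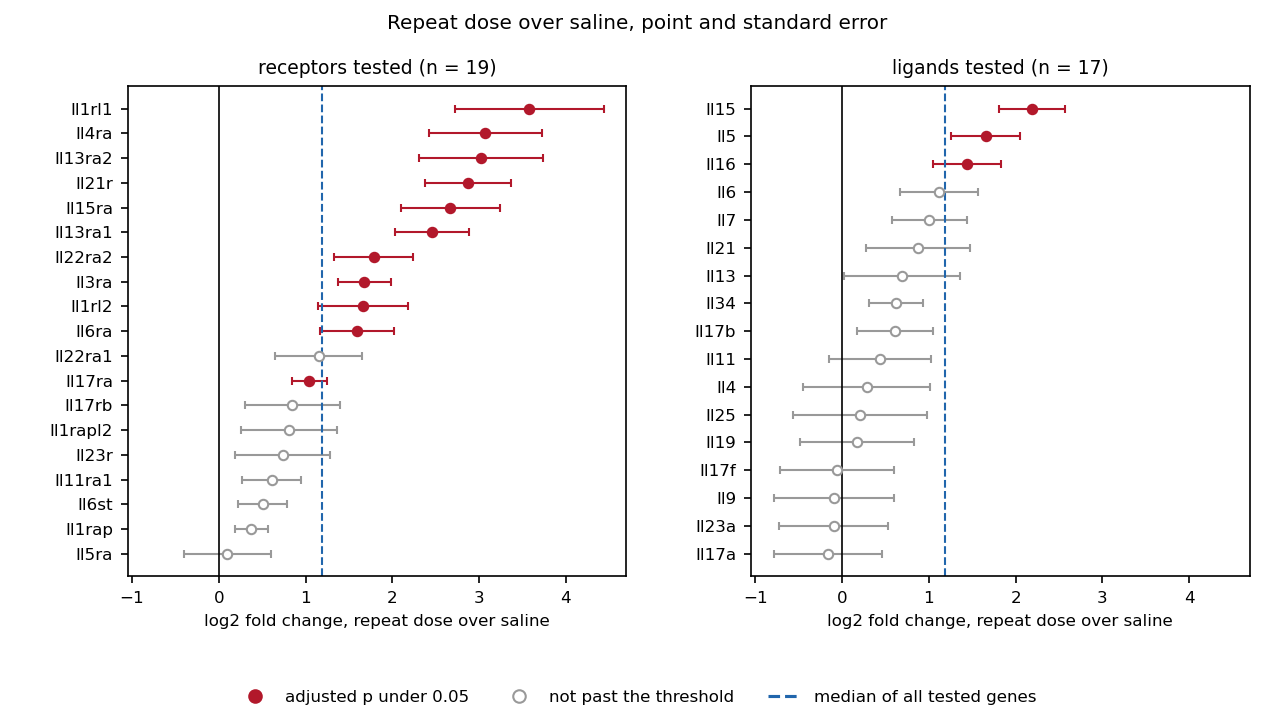
Log2 fold change of the 36 tested members in repeat-dose over saline tumors with housekeeping scaling (x axis), receptors on the left and ligands on the right, 1 row per gene. Points are the edgeR estimates and bars their standard errors (n = 3 tumors per group), filled points passed the threshold, and the dashed line is the median of all 729 genes, 1.19. Of the receptors 10 of 19 and of the ligands 3 of 17 lie above that median.

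The scaling decided how many members moved in which direction. Housekeeping scaling moved the median of all genes in repeat-dose tumors to 1.19 above saline (log2), whereas it lay at -0.01 with TMM factors, which centre the bulk of the genes, at -0.44 with total counts and at -0.26 with the positive controls. In repeat-dose tumors 14 members rose and 0 fell with housekeeping scaling. With TMM factors 8 rose and 5 fell (32.1% and 23.2% of all genes), with total counts 5 rose and 10 fell (21.8% and 34.3%), with positive controls 4 rose and 7 fell (15.8% and 21.5%), and with DESeq2's own size factors 8 rose and 9 fell (33.5% and 27%). In late single-dose tumors total counts gave 0 rises and 1 fall (15.1% and 19.2% of all genes) and DESeq2's own factors 3 and 2 (23% and 17.3%). In early single-dose tumors total counts gave 3 rises and 2 falls (15.5% and 22.1%) and DESeq2's own factors 5 and 1 (23.5% and 15.2%). Across the 4 scalings, 9 receptors and 2 ligands were higher in repeat-dose tumors than in saline under every one, 4 ligands were lower under every one, and the remaining 10 receptors and 11 ligands changed sign. The 9 receptors were Il1rl1, Il4ra, Il13ra2, Il21r, Il15ra, Il13ra1, Il22ra2, Il3ra and Il1rl2, and the 2 ligands were Il15 and Il5. The 4 lower ligands were Il17a, Il17f, Il23a and Il9. Il1rl1, Il4ra and Il21r passed the threshold under all 4.

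**Figure D2:**
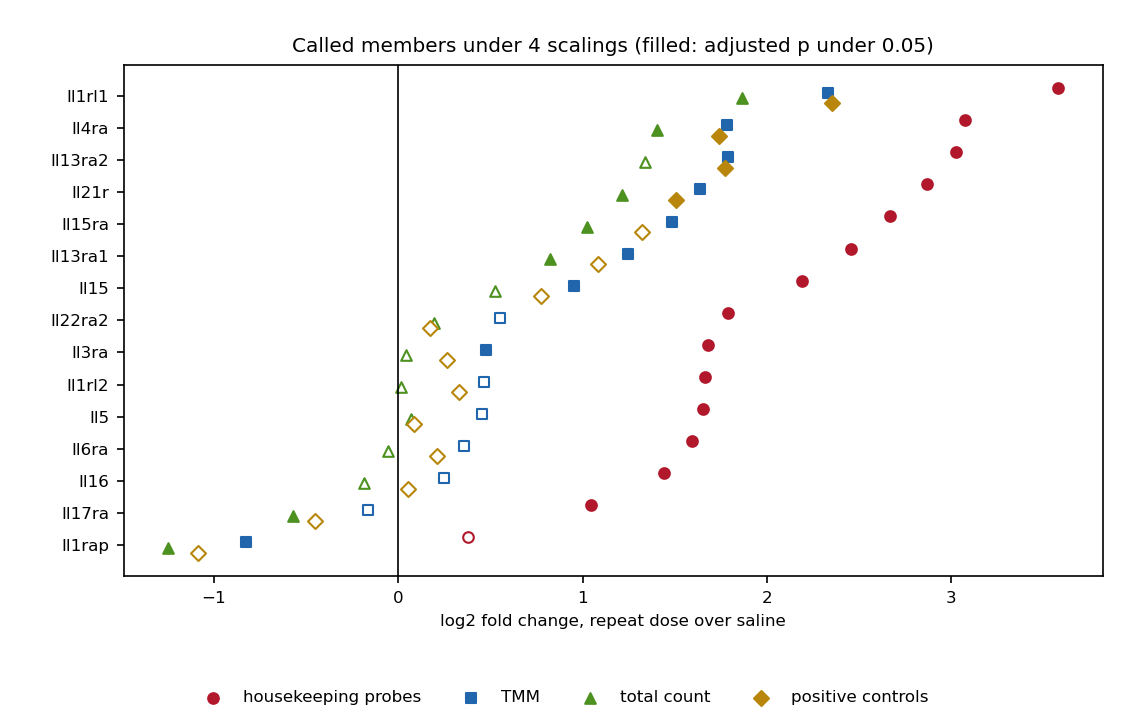
Log2 fold change in repeat-dose over saline tumors (x axis) of the 15 members past the threshold in at least 1 comparison, 1 row per gene, under 4 scalings drawn as 4 symbols. Filled symbols had an adjusted p under 0.05. Il1rl1, Il4ra and Il21r are filled in all 4, and Il17ra and Il1rap, right of 0 with the housekeeping probes, lie left of it with the other scalings.

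The receptors of interleukin-4 and interleukin-13, both type 2 cytokines of helper T cells, mast cells and innate lymphoid cells, rose in repeat-dose tumors. Il4ra, the signalling chain common to both cytokines, had scaled counts of 3333, 1390.0 and 1147 in repeat-dose tumors, 941, 313 and 1066 in late single-dose tumors and 886, 1236 and 551 in early single-dose tumors, against 311, 295 and 92.0 in saline tumors. Every repeat-dose tumor lay above every tumor of the other groups except early single-dose replicate B, and all saline tumors lay lowest. The log2 fold change (± SE) over saline was 3.07 ± 0.65 in repeat-dose tumors (adjusted p = 0.00244). It was 1.73 ± 0.62 in late single-dose (adjusted p = 0.0463) and 1.94 ± 0.62 in early single-dose tumors (adjusted p = 0.0383). It was above 0 under all 4 scalings in each comparison. The repeat-dose call passed under all 4, but the single-dose calls passed only with housekeeping scaling. Adjusted p with TMM, total-count and positive-control scaling was 0.172, 0.227 and 0.304 in late and 0.0599, 0.0947 and 0.116 in early single-dose tumors. With single tumors left out in turn, the late call was lost in 9 refits and the early call in 5. The repeat-dose call held in every refit. Il13ra1, which pairs with Il4ra to bind interleukin-13, had scaled counts of 1828, 1296 and 1053 in repeat-dose tumors, 724, 410.2 and 1275 in late single-dose tumors and 731, 976 and 623 in early single-dose tumors, against 341, 250.4 and 171 in saline tumors. No treated tumor overlapped the saline tumors, and late single-dose replicate B was the lowest treated tumor. Its log2 fold changes over saline were 2.46 ± 0.43, 1.66 ± 0.42 and 1.61 ± 0.42 in repeat-dose, late and early single-dose tumors (adjusted p = 0.00109, 0.0152 and 0.0165).

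Il13ra2, a high-affinity interleukin-13 receptor known as a decoy, had scaled counts of 153, 88.4 and 23.3 in repeat-dose tumors, 32.0, 15.97 and 52.0 in late single-dose tumors and 33.4, 26.8 and 23.9 in early single-dose tumors, against 16.03, 13.7 and 3.56 in saline tumors. The signal was near background in many tumors: 2 of 3 repeat-dose, 2 of 3 late single-dose, 3 of 3 early single-dose and 1 of 3 saline tumors were above their limit. Repeat-dose replicate C, with a raw count of 8, was among those below. The fit gave a log2 fold change of 3.02 ± 0.71 in repeat-dose tumors over saline (adjusted p = 0.00422), with adjusted p = 0.0581 once the negative mean was subtracted from the counts. The ligands Il4 and Il13 did not pass in any comparison. In repeat-dose tumors their log2 fold changes over saline were 0.28 ± 0.74 (adjusted p = 0.775) and 0.69 ± 0.67 (adjusted p = 0.405). Il4 had raw counts of 37, 12 and 15 in repeat-dose tumors and 52, 31 and 78 in saline tumors, and 1 of 3 repeat-dose tumors was above its limit, against 3 of 3 saline tumors.

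Promoter sequences from RefSeq are given for 4 receptors that rose, Il4ra, Il21r, Il13ra1 and Il15ra, and for the ligand Il4, which did not pass the test, so that the 2 kinds can be set side by side. Each run is the 300 bases from 250 before to 50 after an annotated start on GRCm38.p6, 5′ to 3′ on the gene's strand. Capitals mark any match, on either strand, to 6 textbook motifs: the interferon-gamma activated site (TTC and GAA with any 3 bases between), the STAT6 site (the same with 4 bases between), the interferon response core (GAAA and GAAA with 2 bases between), the AP-1 site TGANTCA, the PU.1 core GAGGAA and the GC box GGGCGG.
Il4ra (chr7:125552021-125552320, plus strand): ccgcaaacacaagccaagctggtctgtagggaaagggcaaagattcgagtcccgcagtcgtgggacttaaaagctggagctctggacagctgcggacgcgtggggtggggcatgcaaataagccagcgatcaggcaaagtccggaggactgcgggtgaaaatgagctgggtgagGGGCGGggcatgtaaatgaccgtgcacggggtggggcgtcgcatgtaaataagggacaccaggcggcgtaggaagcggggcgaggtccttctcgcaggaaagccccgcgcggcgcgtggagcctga
Il21r (chr7:125603179-125603478, plus strand): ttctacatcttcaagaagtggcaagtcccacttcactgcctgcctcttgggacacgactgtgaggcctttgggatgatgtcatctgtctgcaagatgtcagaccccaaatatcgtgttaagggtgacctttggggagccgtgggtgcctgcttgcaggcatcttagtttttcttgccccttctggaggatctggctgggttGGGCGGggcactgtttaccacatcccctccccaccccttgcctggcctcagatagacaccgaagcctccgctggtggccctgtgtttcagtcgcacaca
Il13ra1 (chrX:36111858-36112157, plus strand): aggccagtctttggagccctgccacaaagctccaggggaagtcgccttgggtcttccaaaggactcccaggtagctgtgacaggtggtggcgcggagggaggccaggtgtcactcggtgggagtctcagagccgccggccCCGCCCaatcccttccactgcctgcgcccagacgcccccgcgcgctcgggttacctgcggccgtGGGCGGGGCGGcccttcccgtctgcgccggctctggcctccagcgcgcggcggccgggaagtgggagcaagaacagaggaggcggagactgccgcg
Il15ra, upstream start (chr2:11705043-11705342, plus strand): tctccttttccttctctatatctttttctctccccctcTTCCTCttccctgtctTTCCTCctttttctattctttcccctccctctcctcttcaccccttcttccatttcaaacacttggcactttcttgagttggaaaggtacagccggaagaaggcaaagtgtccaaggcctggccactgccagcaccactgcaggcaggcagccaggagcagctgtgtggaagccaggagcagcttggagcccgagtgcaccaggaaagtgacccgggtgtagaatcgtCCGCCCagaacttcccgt
Il15ra, downstream start (chr2:11705462-11705761, plus strand): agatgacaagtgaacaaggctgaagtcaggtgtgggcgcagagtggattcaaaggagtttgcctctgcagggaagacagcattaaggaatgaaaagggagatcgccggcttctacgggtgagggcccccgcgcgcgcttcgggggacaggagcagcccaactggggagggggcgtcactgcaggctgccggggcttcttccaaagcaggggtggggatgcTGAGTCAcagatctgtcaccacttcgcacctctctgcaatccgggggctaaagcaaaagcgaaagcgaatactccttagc
Il4, downstream start (chr11:53617289-53617588, minus strand): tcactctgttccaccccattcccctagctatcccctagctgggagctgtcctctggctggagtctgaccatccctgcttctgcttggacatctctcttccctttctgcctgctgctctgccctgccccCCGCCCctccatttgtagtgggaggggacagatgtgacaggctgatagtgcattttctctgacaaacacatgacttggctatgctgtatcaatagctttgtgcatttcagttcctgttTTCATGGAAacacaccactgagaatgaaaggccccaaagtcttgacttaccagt
Il4, upstream start (chr11:53618616-53618915, minus strand): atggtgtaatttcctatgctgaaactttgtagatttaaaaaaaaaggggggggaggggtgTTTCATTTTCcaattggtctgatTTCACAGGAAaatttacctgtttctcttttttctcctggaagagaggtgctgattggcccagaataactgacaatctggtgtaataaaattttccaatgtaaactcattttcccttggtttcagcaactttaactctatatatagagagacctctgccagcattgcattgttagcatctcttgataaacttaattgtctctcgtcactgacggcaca

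Of the 32851 promoters in the RefSeq table, 35.7% held a GC box, 28.3% a PU.1 core, 7.81% an AP-1 site, 8.30% an interferon-gamma activated site, 6.95% a STAT6 site and 3.44% the interferon response core. The table held 37 promoters of 30 members. Of these promoters 18 held a GC box, 12 a PU.1 core and 10 an AP-1 site. An interferon-gamma activated site was found in 2, a STAT6 site in 5 and the interferon response core in 3. The Il4ra and Il21r promoters each held 1 GC box and none of the other motifs and Il13ra1 held 3 GC boxes and none of the others. The 2 Il15ra promoters held 2 PU.1 cores with 1 GC box, and 1 AP-1 site. Neither a STAT motif nor the interferon response core was found in the 300 bases of these 4 receptors. The 2 Il4 promoters held 1 interferon-gamma activated site with 1 GC box, and 1 STAT6 site with 1 interferon response core. No other member held all of the latter motifs except the GC box, so Il4 does not stand for the ligands that did not pass. Among all members, an interferon-gamma activated site was found for Il4 and Il19, and a STAT6 site for Il3, Il4, Il5ra, Il9 and Il11, none of which passed the test with housekeeping scaling (Il3 was not tested). The interferon response core was found for Il4, Il19 and Il1rap, of which Il1rap passed in early single-dose tumors. An AP-1 site was found for Il13ra2, Il15ra and Il16, which passed with housekeeping scaling. It was also found for Il5ra, Il6, Il9, Il11, Il17a, Il17rb and Il22ra1, which did not. A match describes letters in this window and is no evidence of binding, and a window with no match says nothing of the factor. Il4ra and Il21r are neighbours on chromosome 7 in the same orientation, with starts 51.2 kb apart, and Il4, Il13 and Il5 lie on chromosome 11, with the start of Il4 16037 bases from that of Il13 and 102129 bases from that of Il5.

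Interleukin-15 supports natural killer (NK) cells and memory CD8 T cells, and Il15ra presents it on the surface of a neighbouring cell. Both rose after every schedule with housekeeping scaling. Il15 had scaled counts of 117, 77.9 and 66.9 in repeat-dose tumors, 38.6, 23.0 and 65.9 in late single-dose tumors and 50.7, 48.7 and 45.4 in early single-dose tumors, against 20.7, 20.0 and 16.8 in saline tumors. On the scaled axis every repeat-dose tumor lay above every single-dose tumor, closely so for late single-dose replicate C. Every single-dose tumor lay above the saline tumors on that axis. Raw counts of Il15, however, were 80, 59 and 23 in repeat-dose tumors against 31, 35 and 33 in saline tumors. Repeat-dose replicate C, at 66.9, lay near its scaled background limit of 54.9, and late single-dose replicate B was below its limit. The log2 fold changes of Il15 over saline were 2.19 ± 0.38, 1.14 ± 0.38 and 1.33 ± 0.37 in repeat-dose, late and early single-dose tumors (adjusted p = 0.00109, 0.0349 and 0.0236). Il15 passed in late and early single-dose tumors under none of the other 3 scalings, with 0.05 and 0.34 by total counts (adjusted p = 0.912 and 0.358), and in repeat-dose tumors also with TMM factors (0.95, adjusted p = 0.0116). After subtraction of the negative mean the adjusted p was 0.210 in late and 0.0741 in early single-dose tumors. Il15 was the member with the smallest p between repeat-dose and late single-dose tumors. Il15ra had scaled counts of 131, 103 and 61.1 in repeat-dose tumors, 41.4, 32.9 and 127 in late single-dose tumors and 66.8, 134 and 77.0 in early single-dose tumors, against 22.0, 13.1 and 11.7 in saline tumors. No treated tumor overlapped saline, and the ranges of the early single-dose and repeat-dose tumors overlapped. The log2 fold changes of Il15ra over saline were 2.67 ± 0.57, 2.09 ± 0.56 and 2.57 ± 0.56 (adjusted p = 0.00251, 0.0176 and 0.00809). Raw counts of Il15ra were 90, 78 and 21 in repeat-dose tumors, the last close to its raw limit of 18.9. In saline tumors they were 33, 23 and 23, where 2 of 3 passed the limit.

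Il21r, the receptor of interleukin-21, a cytokine of follicular helper T cells that acts on B cells, T cells and NK cells, had scaled counts of 691, 379 and 306 in repeat-dose tumors, 205, 99.8 and 351 in late single-dose tumors and 132, 148 and 94.7 in early single-dose tumors, against 86.2, 58.9 and 43.7 in saline tumors. Its group means were ordered repeat-dose, late single-dose, early single-dose and saline. All treated tumors lay above all saline tumors. The log2 fold change over saline was 2.87 ± 0.50 in repeat-dose tumors (adjusted p = 0.00109) and 1.80 ± 0.48 in late single-dose tumors (adjusted p = 0.0176), and in early single-dose tumors it was 0.99 ± 0.47 and did not pass (adjusted p = 0.135). The ligands of this group were not called: Il21 had a log2 fold change of 0.87 ± 0.59 in repeat-dose tumors over saline (adjusted p = 0.234), Il9, a mast cell growth factor, -0.09 ± 0.69 (adjusted p = 0.915), and Il7, the stromal survival factor of naive lymphocytes, 1.00 ± 0.43 (adjusted p = 0.0645). With the other scalings Il9 was lower in repeat-dose tumors than in saline, at -1.35 with TMM factors, -1.76 with total counts and -1.67 with positive controls (adjusted p = 0.0482, 0.0382 and 0.0207). Only 1 of 3 repeat-dose tumors was above background for Il9, against 3 of 3 saline tumors. Il7 was below background in all 3 repeat-dose tumors and above it in 2 of 3 saline tumors.

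Among the chains of the common beta group, Il3ra, the interleukin-3 binding chain of basophils, plasmacytoid dendritic cells and progenitors, rose in all 3 comparisons with housekeeping scaling. Its scaled counts were 837, 677 and 585 in repeat-dose tumors, 443, 285 and 691 in late single-dose tumors and 490.0, 537 and 419.8 in early single-dose tumors, against 264, 198 and 194 in saline tumors, with every treated tumor above every saline tumor and with repeat-dose tumors overlapping late single-dose replicate C. The log2 fold changes over saline were 1.68 ± 0.30, 1.11 ± 0.30 and 1.14 ± 0.30 (adjusted p = 0.00130, 0.0177 and 0.0176). With total counts Il3ra had log2 fold changes of 0.04, 0.05 and 0.15 (adjusted p = 0.822, 0.824 and 0.420), and beside housekeeping scaling it passed only in repeat-dose tumors with TMM factors (0.48, adjusted p = 0.0474). Il5ra, the eosinophil receptor chain, had a log2 fold change of 0.10 ± 0.50 in repeat-dose tumors (adjusted p = 0.887) and was below background in all 3 repeat-dose tumors. With total counts the value of Il5ra was -1.58 (adjusted p = 0.0331), and with positive controls -1.39 (adjusted p = 0.0327). Il5, the eosinophil growth factor, passed in repeat-dose tumors at 1.65 ± 0.40 (adjusted p = 0.00441). Its raw counts, however, were 35, 26 and 25 in repeat-dose tumors against 32, 23 and 29 in saline tumors, close to the raw background limits in both groups. Subtracting the negative mean gave adjusted p = 0.151, and the fold changes with TMM, total-count and positive-control scaling were 0.46, 0.07 and 0.09. The raw counts overlapped, while the housekeeping counts of repeat-dose tumors were lower than those of saline tumors.

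The interleukin-1 receptor family held the member with the highest log2 fold change in repeat-dose and in single-dose tumors, Il1rl1. This ST2 chain, which binds interleukin-33 and is carried by mast cells, type 2 innate lymphoid cells and regulatory T cells, had scaled counts of 1308, 609 and 131 in repeat-dose tumors, 179.8, 117 and 462 in late single-dose tumors and 563, 344 and 156 in early single-dose tumors, against 89.5, 40.6 and 42.2 in saline tumors. Repeat-dose replicates A and B stood well above replicate C, and all treated tumors lay above the saline tumors. The log2 fold change over saline was 3.58 ± 0.86 in repeat-dose tumors (adjusted p = 0.00448) and 2.62 ± 0.82 in early single-dose tumors (adjusted p = 0.0361), and in late single-dose tumors it was 2.14 ± 0.81 and did not pass (adjusted p = 0.0583). Il1rl2, the interleukin-36 receptor, had scaled counts of 84.6, 75.2 and 37.8 in repeat-dose tumors, 65.0, 24.95 and 82.4 in late single-dose tumors and 38.4, 77.1 and 38.5 in early single-dose tumors, against 26.7, 23.4 and 13.2 in saline tumors, with late single-dose replicate B inside the saline range and repeat-dose replicate C below its background limit. Its log2 fold changes over saline were 1.66 ± 0.52 in repeat-dose, 1.44 ± 0.51 in late single-dose and 1.29 ± 0.51 in early single-dose tumors (adjusted p = 0.0162, 0.0454 and 0.0758, the last not past the threshold), and the adjusted p in repeat-dose tumors was 0.255 once the negative mean was subtracted.

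Il1rap, the accessory chain that both of these receptors need, moved little with housekeeping scaling. Its scaled counts were 503, 419.8 and 451 in repeat-dose tumors, 385, 439 and 475 in late single-dose tumors and 661, 480.2 and 468 in early single-dose tumors, against 405, 336 and 318 in saline tumors. With housekeeping scaling it passed only in early single-dose tumors over saline, at 0.60 ± 0.19 (adjusted p = 0.0371), and TMM and total-count scaling turned the sign there to -0.05 and -0.38. Among the 15 members past the threshold somewhere it was the 1 whose highest mean was not in repeat-dose tumors. In repeat-dose tumors Il1rap had a log2 fold change of 0.38 ± 0.19 over saline with housekeeping scaling (adjusted p = 0.113). It passed there as lower with TMM factors (-0.83, adjusted p = 0.00904) and with total counts (-1.25, adjusted p = 0.00153). Il1rapl2, a related chain of the nervous system, was above background in 4 of 12 tumors and passed nowhere.

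Il17ra, the subunit used by most interleukin-17 receptors, had scaled counts of 975, 795 and 984 in repeat-dose tumors, 770.1, 597 and 971 in late single-dose tumors and 797, 844 and 750.2 in early single-dose tumors, against 494, 437 and 404 in saline tumors, and no treated tumor overlapped the saline tumors. Its log2 fold changes over saline were 1.05 ± 0.20, 0.81 ± 0.20 and 0.84 ± 0.20 (adjusted p = 0.00173, 0.0150 and 0.0119). In repeat-dose tumors the value turned to -0.16 with TMM, -0.57 with total-count (adjusted p = 0.0270) and -0.45 with positive-control scaling. With housekeeping scaling it lay 0.15 below the median of all genes. Il17rb, the receptor of interleukin-25 and interleukin-17B, did not pass (0.85 ± 0.54 in repeat-dose tumors, adjusted p = 0.204). The 4 ligands Il17a, Il17b, Il17f and Il25 passed nowhere with housekeeping scaling, with log2 fold changes over saline between -0.16 ± 0.63 for Il17a and 0.61 ± 0.44 for Il17b in repeat-dose tumors. Il17a, the product of Th17 and gamma-delta T cells, had raw counts of 22, 7 and 17 in repeat-dose tumors, all below their limits, and of 67, 32 and 67 in saline tumors, all above. Its log2 fold change in repeat-dose tumors was -1.39 with TMM factors, -1.76 with total counts and -1.80 with positive controls (adjusted p = 0.0526, 0.0445 and 0.00978), and that of Il17f was -1.32, -1.72 and -1.66 (adjusted p = 0.0634, 0.0489 and 0.0188).

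Of the gp130 group, Il6ra, the chain that binds interleukin-6, passed in repeat-dose and late single-dose tumors, among the 4 scalings only with the housekeeping probes. Its scaled counts were 407, 209 and 195 in repeat-dose tumors, 251, 123 and 324 in late single-dose tumors and 188, 248 and 161 in early single-dose tumors, against 121, 85.7 and 62.5 in saline tumors, every treated tumor above every saline tumor. The log2 fold changes over saline were 1.60 ± 0.43 in repeat-dose and 1.38 ± 0.42 in late single-dose tumors (adjusted p = 0.00789 and 0.0269), with -0.06 in repeat-dose tumors by total counts, and 1.15 ± 0.42 in early single-dose tumors, not past the threshold (adjusted p = 0.0598). Between late and early single-dose tumors Il6ra did not pass (0.22 ± 0.42, adjusted p = 0.998), so the calls do not set the 2 apart. The signalling chain Il6st had log2 fold changes over saline of 0.50 ± 0.29, 0.24 ± 0.29 and 0.32 ± 0.29 with housekeeping scaling, none past the threshold, and of -0.74 in repeat-dose tumors with TMM factors (adjusted p = 0.0189). Il6 itself, a product of macrophages and stroma, had scaled counts of 198, 84.5 and 98.9 in repeat-dose tumors, 71.5, 78.8 and 117 in late single-dose tumors and 134, 47.9 and 67.8 in early single-dose tumors, against 73.5, 41.7 and 61.5 in saline tumors. Repeat-dose tumors lay above saline tumors without overlap, and the log2 fold change of 1.12 ± 0.45 missed the threshold (adjusted p = 0.0511). Il11 was above background in 4 of 12 tumors, and Il11ra1 had a log2 fold change of 0.61 ± 0.34 in repeat-dose tumors (adjusted p = 0.145).

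In the interleukin-10 family and for interleukin-23 the counts were low. Il22ra2, a soluble receptor that blocks interleukin-22, passed in repeat-dose tumors at 1.79 ± 0.46 (adjusted p = 0.00626) on raw counts of 35, 23 and 28, against 25, 29 and 25 in saline tumors. The raw counts overlapped, and the adjusted p was 0.151 after subtraction of the negative mean. Il22ra1, the membrane receptor of epithelium, had a log2 fold change of 1.15 ± 0.50 (adjusted p = 0.0680), Il23r 0.74 ± 0.54 (adjusted p = 0.270), Il19 0.17 ± 0.65 (adjusted p = 0.845) and Il23a, the interleukin-23 subunit, -0.10 ± 0.62 (adjusted p = 0.905). Il23a was lower in repeat-dose tumors with the other scalings, at -1.35 with TMM factors, -1.77 with total counts and -1.65 with positive controls (adjusted p = 0.0397, 0.0320 and 0.0176). Only 1 of 3 repeat-dose tumors was above background for Il23a, against 3 of 3 saline tumors.

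The remaining ligands bind Cd4 and Csf1r. Il16, a chemoattractant stored as a precursor in lymphocytes, was the 1 tested ligand with a mean raw count above 100. Its scaled counts were 217, 182 and 146 in repeat-dose tumors, 173, 78.8 and 249.6 in late single-dose tumors and 104, 138 and 102 in early single-dose tumors, against 87.5, 63.5 and 50.3 in saline tumors, with repeat-dose and early single-dose tumors above all saline tumors and late single-dose replicate B inside their range. The log2 fold changes over saline were 1.44 ± 0.39 in repeat-dose tumors (adjusted p = 0.00847, and -0.18 by total counts), 1.32 ± 0.39 in late single-dose (adjusted p = 0.0230) and 0.78 ± 0.39 in early single-dose tumors (adjusted p = 0.151). Il34, a survival factor of macrophages, had a log2 fold change of 0.62 ± 0.31 in repeat-dose tumors with housekeeping scaling (adjusted p = 0.102) and of -0.61 with TMM factors (adjusted p = 0.0318).

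**Figure D3:**
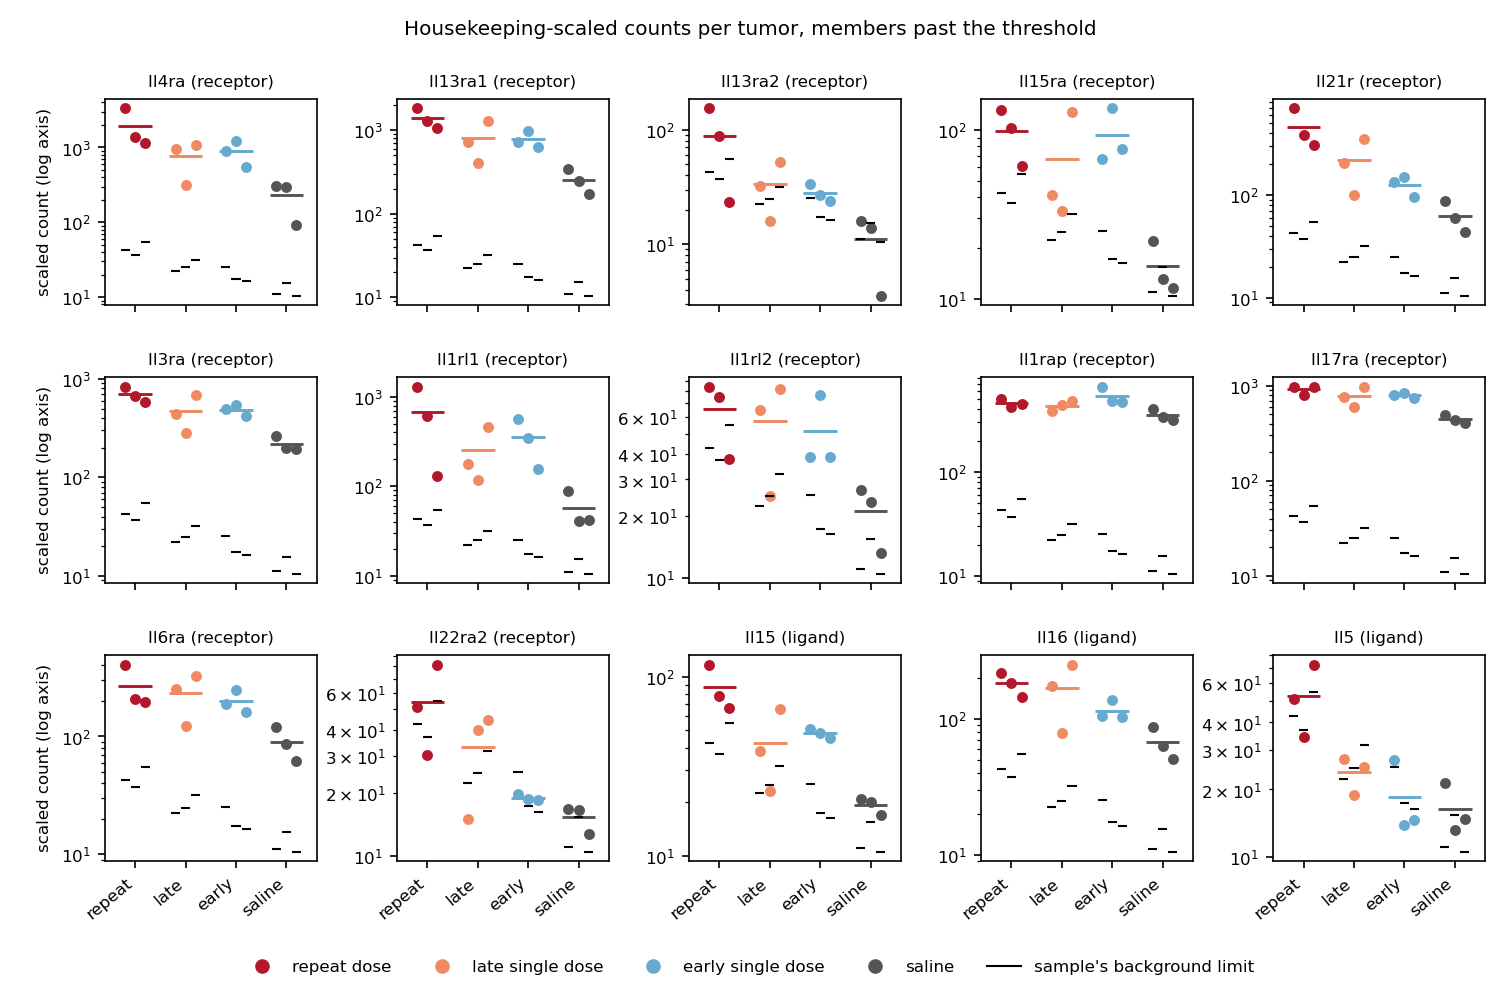
Housekeeping-scaled counts (log y axis) of the 15 members past the threshold in at least 1 comparison, in repeat-dose, late single-dose, early single-dose and saline tumors from left to right. Points are the 3 tumors A, B and C of a group, coloured bars the group means and black dashes each tumor's background limit. In 14 of 15 panels the highest mean is in repeat-dose tumors and in all 15 the lowest is in saline, and for Il13ra2, Il22ra2 and Il5 several points lie near or below the dashes.

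Of the 17 tested ligands, 16 had a mean raw count under 100, all but Il16. Their median raw count was 44, 18.5 and 23 in repeat-dose tumors, 27, 42.5 and 46.5 in late single-dose, 65.5, 23.5 and 36.5 in early single-dose and 67.5, 42.5 and 86 in saline tumors. Of these 16 ligands 13, 3 and 10 were above the limit in repeat-dose replicates A, B and C, and 16, 13 and 16 in the saline replicates. The highest raw count of a ligand was found in saline replicate C for 12 of 16, in saline replicate A for 2 and in repeat-dose replicate A for 3, with Il17a counted in both saline tumors that tied. The 213 other tested genes with a mean raw count under 100 had their highest count in saline replicate C for 107. The ligand medians of repeat-dose replicates B and C lay below all saline medians, and that of replicate A lay just above saline replicate B. The same held for the 213 other genes, with medians of 48, 30 and 23 in repeat-dose and 60, 46 and 73 in saline tumors. Among all gene probes, 695, 608 and 653 were above the limit in repeat-dose replicates A, B and C, against 729, 688 and 711 in saline. The lower raw counts were thus not particular to the ligands.

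**Figure D4:**
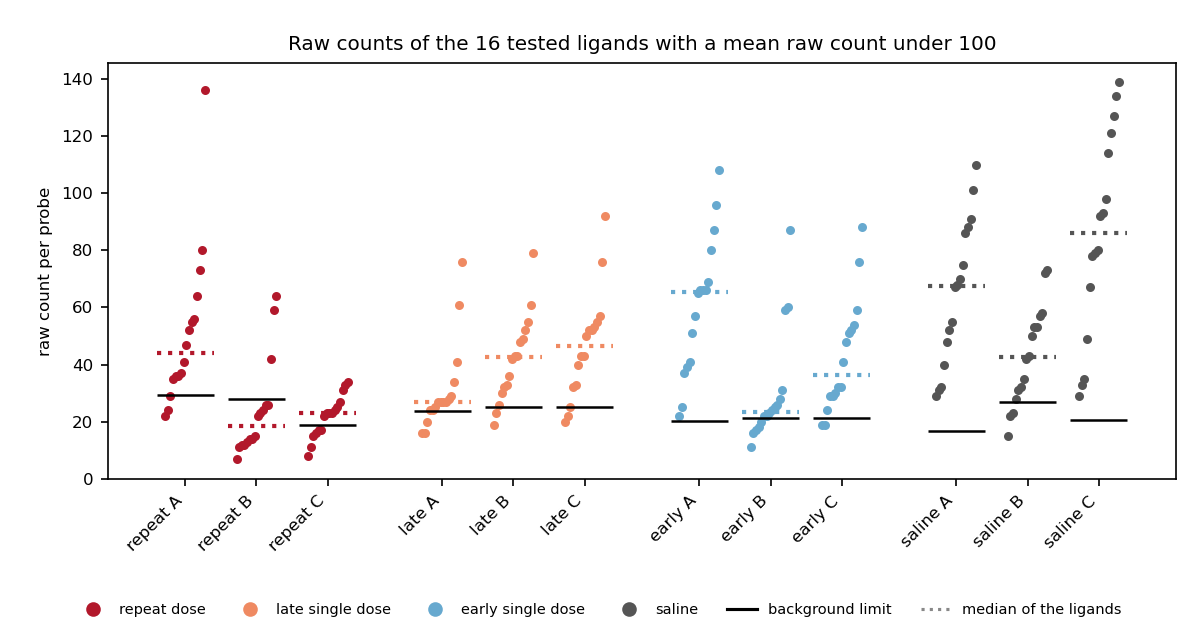
Raw counts per probe (y axis from 0) of the 16 tested ligands with a mean raw count under 100, in each of the 12 tumors, with repeat-dose tumors on the left and saline on the right. Points are genes, black bars the tumor's background limit and dotted bars the median of the 16 ligands. The medians are 44, 18.5 and 23 in repeat-dose tumors and 67.5, 42.5 and 86 in saline tumors.

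Repeat dosing was also set against the late single dose, tumors of the same age with and without a further dose. By edgeR with housekeeping scaling 0% of 729 genes passed, members included, and 3 members and 77 genes had an unadjusted p under 0.05. Those members were Il15 (1.05 ± 0.37, adjusted p = 0.425), Il5 (1.11 ± 0.40, adjusted p = 0.425) and Il21r (1.07 ± 0.47, adjusted p = 0.425), all higher in repeat-dose tumors. By DESeq2 with housekeeping factors 0 members and 3 of 729 genes passed, by limma 0 members and 0 genes, and 5 and 3 members had an unadjusted p under 0.05. With housekeeping scaling all 19 receptors and 15 of 17 ligands had a positive log2 fold change, with medians of 0.55 and 0.20 beside 0.41 for all genes, but 6 receptors and 2 ligands were higher in repeat-dose tumors under all 4 scalings. The receptor and ligand medians were 0.17 and -0.28 with TMM factors (0.01 for all genes), -0.01 and -0.46 with total counts (-0.21) and -0.20 and -0.46 with positive controls (-0.23). Without late single-dose replicate C, the highest of its group for all 12 called receptors, Il15 (1.51 ± 0.35, adjusted p = 0.0316) and Il3ra (0.94 ± 0.26, adjusted p = 0.0417) passed. No member passed when any other tumor was left out. Replicate C was also the highest late single-dose tumor for Il15. Leaving out the highest tumor of the lower group widens the difference, so these passes are no evidence for the further dose. Calls among all genes were not counted in that refit. Between late and early single-dose tumors 0% of genes passed by edgeR, with 0 members and 57 genes at an unadjusted p under 0.05, and DESeq2 with housekeeping factors called 24 genes, 0 of them members. The effect of the further dose (repeat-dose minus late single-dose) was compared with that of the first dose (early single-dose minus saline), and 0% of genes passed by edgeR, with 1 member and 79 genes at an unadjusted p under 0.05. DESeq2 with housekeeping factors called 18 genes for that difference, 0 of them members. The member was Il15ra, whose difference of the 2 effects was -1.99 ± 0.76 on the log2 scale (adjusted p = 0.380).

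Leaving out single tumors changed the single-dose calls more than the repeat-dose calls. In repeat-dose tumors 13 of 14 calls held without each of the 12 tumors in turn, and Il1rl2 was lost without repeat-dose replicate A (adjusted p = 0.0607) and without saline replicate C (adjusted p = 0.0613). In late single-dose tumors the 10 calls became 0 without saline replicate B, 0 without saline replicate C, 1 without late single-dose replicate C and 6 without late single-dose replicate A. In that last refit Il15, Il16, Il1rl2, Il4ra and Il6ra were lost, so the 6 calls were not all among the 10. In early single-dose tumors the 8 calls became 1 without saline replicate B, 1 without saline replicate C, 2 without early single-dose replicate B and 4 without early single-dose replicate A. Il15ra alone among the early calls held in all 12 refits, with adjusted p up to 0.0442.

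Marker lists were read with housekeeping scaling beside the shares of all genes that rose, 59.4% in repeat-dose, 39.1% in late single-dose and 30.5% in early single-dose tumors. Of 8 macrophage and monocyte markers 8 rose in repeat-dose, 6 in late single-dose and 3 in early single-dose tumors over saline, and their summed scaled count ran from 8884 to 27683 in repeat-dose, 4918 to 12466 in late single-dose, 4082 to 9159 in early single-dose and 799.9 to 2880.1 in saline tumors. Of 10 T cell markers 6, 6 and 1 rose, with sums of 1977 to 2293, 1049 to 2815, 722 to 978 and 415 to 841. Of 6 NK cell markers 5, 4 and 5 rose, with sums of 1489.9 to 2391, 739 to 1803, 1188 to 1629 and 294 to 599. Of 7 tested neutrophil markers 3, 3 and 2 rose, with Camp below background in every tumor. The summed neutrophil list nonetheless lay above saline without overlap. It ran from 2839 to 5684.5 in repeat-dose, 1212 to 2520 in late single-dose, 1416 to 3501 in early single-dose and 273 to 461 in saline tumors. Of 6 tested mast cell and eosinophil markers 1, 1 and 2 rose, and Ms4a2, a chain of the IgE receptor, was below background in every tumor. The sums of that list were 326 to 513 in repeat-dose, 335 to 490.4 in late single-dose, 297 to 489.98 in early single-dose and 248 to 333 in saline tumors. Of 6 B cell markers 0 passed in each of the 3 comparisons. By the number of markers called in repeat-dose tumors, the macrophage and NK cell lists lay above the share of all genes and the T cell list at it. The neutrophil, mast cell and B cell lists lay below it by that number, although the neutrophil sum was higher than in saline. The part of these cells in the receptor results was not tested.

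Genes of the same signalling systems outside the 40 members were read from lists, with housekeeping scaling. The shares of all genes that rose were 59.4% in repeat-dose, 39.1% in late single-dose and 30.5% in early single-dose tumors. Of 6 tested shared receptor subunits 5 rose in repeat-dose, 5 in late single-dose and 3 in early single-dose tumors over saline. In repeat-dose tumors the log2 fold change was 3.33 ± 0.57 for Il2rg, the common gamma chain of the interleukin-15 and interleukin-21 receptors, 3.41 ± 0.55 for Il2rb, which interleukin-15 also uses, and 2.22 ± 0.48 for Csf2rb, the partner of Il3ra and Il5ra. Ifnar1, an interferon receptor chain, did not pass (0.16 ± 0.21, adjusted p = 0.551). Of 10 Janus kinases and STAT factors, which carry the signal of most of these receptors, 9, 5 and 5 rose. Among them Stat3, used by gp130 receptors and Il21r, stood at 1.63 ± 0.25 in repeat-dose tumors, and Stat6, used by Il4ra, at 0.71 ± 0.21, below the median of all genes. Stat4, used by the interleukin-12 receptor, did not pass (0.34 ± 0.37, adjusted p = 0.47). Of 6 tested helper T cell lineage factors 5, 2 and 1 rose, with Tbx21 of Th1 cells at 1.83 ± 0.35 and Gata3 of Th2 cells at 1.41 ± 0.42 in repeat-dose tumors, while Foxp3 of regulatory T cells did not pass (0.16 ± 0.72, adjusted p = 0.872). Of 6 tested ligand partners and related ligands 3, 3 and 2 rose, Ebi3, Osm and Csf1 in repeat-dose tumors. The ligand list thus lay below the share of all genes in repeat-dose tumors, and the lineage factors below it in late and early single-dose tumors. The lists are short and were not tested against that share.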

How the data were processed

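Raw counts of bar-coded probes were deposited for 12 tumors, 1 file per tumor, from the nCounter Mouse PanCancer Immune Profiling panel. The normalized signal values of the deposited series table were made by the authors in nSolver, per the labels. For gene probes they equalled the raw counts times 1 factor per tumor to within 0.0166%, and 168 of 168 control values equalled the raw counts. Those values served as an alternative only.

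Groups came from the sample titles. Raw counts were tested with edgeR 4.0.16 in R 4.3.3 (quasi-likelihood, robust fit), in 1 fit of all 12 tumors and 4 groups, where the geometric mean of 20 housekeeping probes set each library size. Of 750 genes, 729 were above the mean plus 2 SD of the tumor's negative probes in at least 3 tumors and were tested. P-values were Benjamini-Hochberg adjusted over all 729, with a threshold of 0.05, and are two-sided. The standard error of a log2 fold change was its size divided by the square root of the F statistic. Each test rests on 3 mice per group. Members past the threshold in any comparison were named with their values in every tumor, those past none with a summary. The members and the gene lists were chosen with earlier results of these data known. The fit was tested on simulated data.

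Alternatives were TMM, total-count and positive-control scaling, DESeq2 1.42.0 with its own or housekeeping size factors, limma 3.58.1 on log2(authors' signal + 1), other filters, subtraction of the negative mean, a block for the replicate letter, fits limited to the groups compared, and fits without each tumor in turn. Same-letter tumors did not deviate together (mean correlation of deviations 0.037, from -0.650 to 0.596, with 8 of 18 pairs over 0.1), so the letters were not taken as pairs. Motifs were searched on both strands of RefSeq promoters with Python 3.11.15. Some genes of the lists are not reported here.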

Additional observations from a re-analysis of the deposited data

How the results depend on the processing

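Member counts changed with the scaling, the filter, the samples fitted and single tumors. Against 10 calls in late and 8 in early single-dose tumors over saline, TMM scaling gave 3 and 3, total counts 1 and 5, and positive controls 0 and 1, and DESeq2 with its own size factors gave 5 in late single-dose tumors. Of all 729 genes, housekeeping scaling called 286 in late and 227 in early single-dose tumors. TMM called 200 and 198 of the 729 genes, total counts 250 and 274, and positive controls 39 and 87, each with rises and falls together. DESeq2's own factors called 294 in late single-dose tumors. The joint count of 13 became 7 with TMM, 7 with total counts, 0 with positive controls, 8 with the filter on all 12 tumors and 7 with the negative mean subtracted. Over all genes the joint test called 356 with housekeeping scaling, 318 with TMM, 337 with total counts and 108 with positive controls. The filter on all tumors, which tests fewer members, left 9 calls in repeat-dose tumors, and a fit of only the groups compared left 0 in late single-dose tumors. The log2 fold change turned negative for Il17ra in repeat-dose tumors with TMM (-0.16), total counts (-0.57), positive controls (-0.45) and DESeq2's own factors (-0.17), in late single-dose tumors with total counts (-0.20), positive controls (-0.0040) and DESeq2's own factors (-0.0019), and in early single-dose tumors with total counts (-0.15). It turned negative for Il1rap in early single-dose tumors with TMM (-0.051), total counts (-0.38) and DESeq2's own factors (-0.096), and in repeat-dose tumors by total counts for Il16 (-0.18) and Il6ra (-0.056). The cause was not tested. With each tumor left out in turn, member counts ran from 13 to 16 in repeat-dose, 0 to 11 in late and 1 to 10 in early single-dose tumors over saline, 0 to 2 between repeat-dose and late single-dose tumors, and 4 to 14 in the joint test. With the replicate letter as a block there were 15 calls in repeat-dose, 9 in late and 8 in early single-dose tumors and 11 in the joint test. For the filters, the subtraction, the block, the fits of only the groups compared and the left-out tumors, calls among all genes were not counted. Whether members changed more than other genes there was not tested. DESeq2 with housekeeping factors kept all 32 calls, and limma kept 30 of 32. Weak ligands lay near the negative probes, which limits what could be detected for them.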

Other observations

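Markers of cell types not described above were counted in the same fit, with no test between lists. Of 6 fibroblast markers 1 rose in repeat-dose, 1 in late single-dose and 1 in early single-dose tumors over saline, and their summed scaled count spread widely within groups, from 4781 to 24244 in repeat-dose and from 2598 to 16236 in saline tumors. Of 7 endothelial markers 1 rose and 2 fell in repeat-dose tumors, with sums of 4083 to 5033 in repeat-dose and 3247 to 3925 in saline tumors. Of 4 tested dendritic cell markers 2 rose in repeat-dose, 1 in late single-dose and 0 in early single-dose tumors. Of 3 tested epithelium and skin markers 2 rose in repeat-dose, 0 in late single-dose and 1 in early single-dose tumors, with sums of 248 to 352 in repeat-dose and 109 to 135 in saline tumors. All of these counts used housekeeping scaling. With it 59.4% of all genes rose in repeat-dose, 39.1% in late single-dose and 30.5% in early single-dose tumors, and 1.92% fell in repeat-dose tumors.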
